A study of Mus musculus with 39 samples.

Results

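The levels of complement genes were followed over diets and time points in the subcutaneous fat of C57BL/6J mice. The 9 genes were C1qa, C1qb, C1qc, C2, C3, C4b, C6, C7 and Cfb, taken by gene name with all their probes, which gave 11 probes among the 40628 probes and 9 genes among the 29411 gene names of the array. The list was chosen from the measured levels of these same arrays over diets and time points, so the values of these genes are a description and no test is drawn from them.

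The tissue came from mice that were put on their diets after weaning at 3 to 4 weeks of age, in 5 groups of 30 animals, with 5 animals of each group taken every 3 weeks. LFC was the low-fat control diet with 10% of calories from fat (10 arrays), and HFC was a high-fat diet with added sucrose and 60% of calories from fat (11 arrays). HF5, HF20 and HF75 were that same high-fat diet with KAL-1, an aqueous botanical formulation, at 5 µg, 20 µg and 75 µg (6 arrays each). Arrays of LFC and HFC pair up at 10 time points, of which Day 6, Day 10, Day 14 and Week 0 are called early and the 6 from Week 3 to Week 18, every 3 weeks, late. A paper on the liver arrays of this experiment counts weeks from Day 14 and takes Day 14 and Week 0 as repeats of the same time. Here they are kept as separate time points, so n counts that time more than once. Day 1 had HFC alone, and arrays of the KAL-1 diets begin at Week 3. The deposited files hold 1 array for each diet and time point, and the labels leave unsaid how many mice gave the RNA of an array, while the design text speaks of 3 biological replicates. The spread of a diet difference is therefore that between time points, and n counts time points or arrays.

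Complement is a cascade of proteins that marks particles and cells for removal. In the classical pathway C1q, built of A, B and C chains, binds antibody or other surfaces and starts the proteases C1r and C1s, which cut C4 and C2 to make a convertase for C3. In the alternative pathway factor B, the product of Cfb, pairs with C3b and is cut by factor D, and C6 and C7 belong to the terminal pathway that builds the membrane attack complex. The liver makes most plasma complement, while C1q chains are made largely by macrophages and related myeloid cells, and adipose tissue is known for factor D (adipsin) and C3.

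The probes of the 60-base array are shown for the C1q chains and the terminal genes that are described apart from each other, and for C4b beside its near-identical neighbour C4a, because the probe fixes which transcript a level stands for. The sequences are those of the array design, in lower case throughout since the whole probe is the measured stretch.
C1qa probe: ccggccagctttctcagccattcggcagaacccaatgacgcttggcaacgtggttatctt
C1qb probe: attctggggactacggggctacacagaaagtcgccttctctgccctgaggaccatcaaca
C6 probe: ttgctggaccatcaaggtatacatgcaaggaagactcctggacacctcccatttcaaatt
C7 probe: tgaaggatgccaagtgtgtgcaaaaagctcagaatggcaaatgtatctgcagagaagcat
C4b probe: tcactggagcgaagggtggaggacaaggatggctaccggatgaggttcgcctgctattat
C4a probe: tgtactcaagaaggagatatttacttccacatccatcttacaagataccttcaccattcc
The array annotation lists transcript accessions of both C4a and C4b for each of the C4 probes, so the C4b level may hold transcripts of both genes. The C4b probe was well above background on all 39 arrays and the C4a probe on 17.

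Some members are also neighbours in the genome. In the RefSeq gene table for GRCm38.p6, C1qc lay next to both C1qa and C1qb, with 0 protein-coding genes between, C2 lay next to Cfb, and C6 and C7 had 1 protein-coding gene between them. Promoter sequence from RefSeq was given for 5 of the 9 genes. It is shown for C1qb and C1qc, whose levels moved together across the arrays, as the 250 bases before the start site with the match to GAGGAA or its reverse complement in capitals, a core that PU.1 and other ETS factors of myeloid cells can bind.
C1qb, GRCm38.p6, chr4:136886201-136886450, minus strand: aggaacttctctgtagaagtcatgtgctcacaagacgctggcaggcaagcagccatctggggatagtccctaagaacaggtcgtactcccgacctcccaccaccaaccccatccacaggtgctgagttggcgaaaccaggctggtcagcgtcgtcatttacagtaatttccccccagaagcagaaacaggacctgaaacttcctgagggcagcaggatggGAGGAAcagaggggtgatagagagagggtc
C1qc, GRCm38.p6, chr4:136892915-136893164, minus strand: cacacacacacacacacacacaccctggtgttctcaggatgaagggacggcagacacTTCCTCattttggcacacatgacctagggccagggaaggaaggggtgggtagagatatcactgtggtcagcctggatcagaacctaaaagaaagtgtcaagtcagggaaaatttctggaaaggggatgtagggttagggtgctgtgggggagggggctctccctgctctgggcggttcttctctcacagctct
Each of the 2 windows held 1 match, on either strand, and 23.3% of all 32851 promoters of this length held at least 1. The other motif searched, TTGCNNAA of C/EBP factors, was found in the C3 window and in 9.56% of all promoters.

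Levels are log2 intensities with 0 at the 75th percentile of the array, and they are compared within a probe, never between genes. Spots well above background made up between 49.3% of the array in HF75 at Week 3 and 87.8% in HF20 at Week 15, and the 75th percentile of intensity ran from 108 to 1285 scanner units. Adipocyte markers (Adipoq, Plin1, Cidec, Fabp4, Pnpla2 and Lep) were well above background on all 39 arrays. Skeletal muscle markers had mean levels of 7.58 in HF75 at Week 3, 6.41 in HF5 at Week 12 and 6.24 in HFC at Day 1, against 5.29 and 4.50 in HFC and LFC at Day 6 and lower on every other array. HFC at Day 14 had the highest means of the liver markers, 2.42, and of the mesothelial markers, 1.27. Deposited log2 ratios matched the array of the same label for 26 of 28 arrays, but those labelled HF5 and HF20 at Week 12 matched each other's array (r = 1.00) rather than their own (r = 0.66 and 0.67), and the HF5 title of that week has the letter B where others have S. No member's HF5 or HF20 difference from HFC changed its sign when these arrays were exchanged, and values without the arrays that stand apart are given beside the results that rest on them. Arrays of 3 time points were scanned on more than 1 day, which parted HFC from LFC at Day 6 and Week 12, from HF20 and HF75 at Week 6 and from HF5 and HF20 at Week 12.

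**Figure D1:**
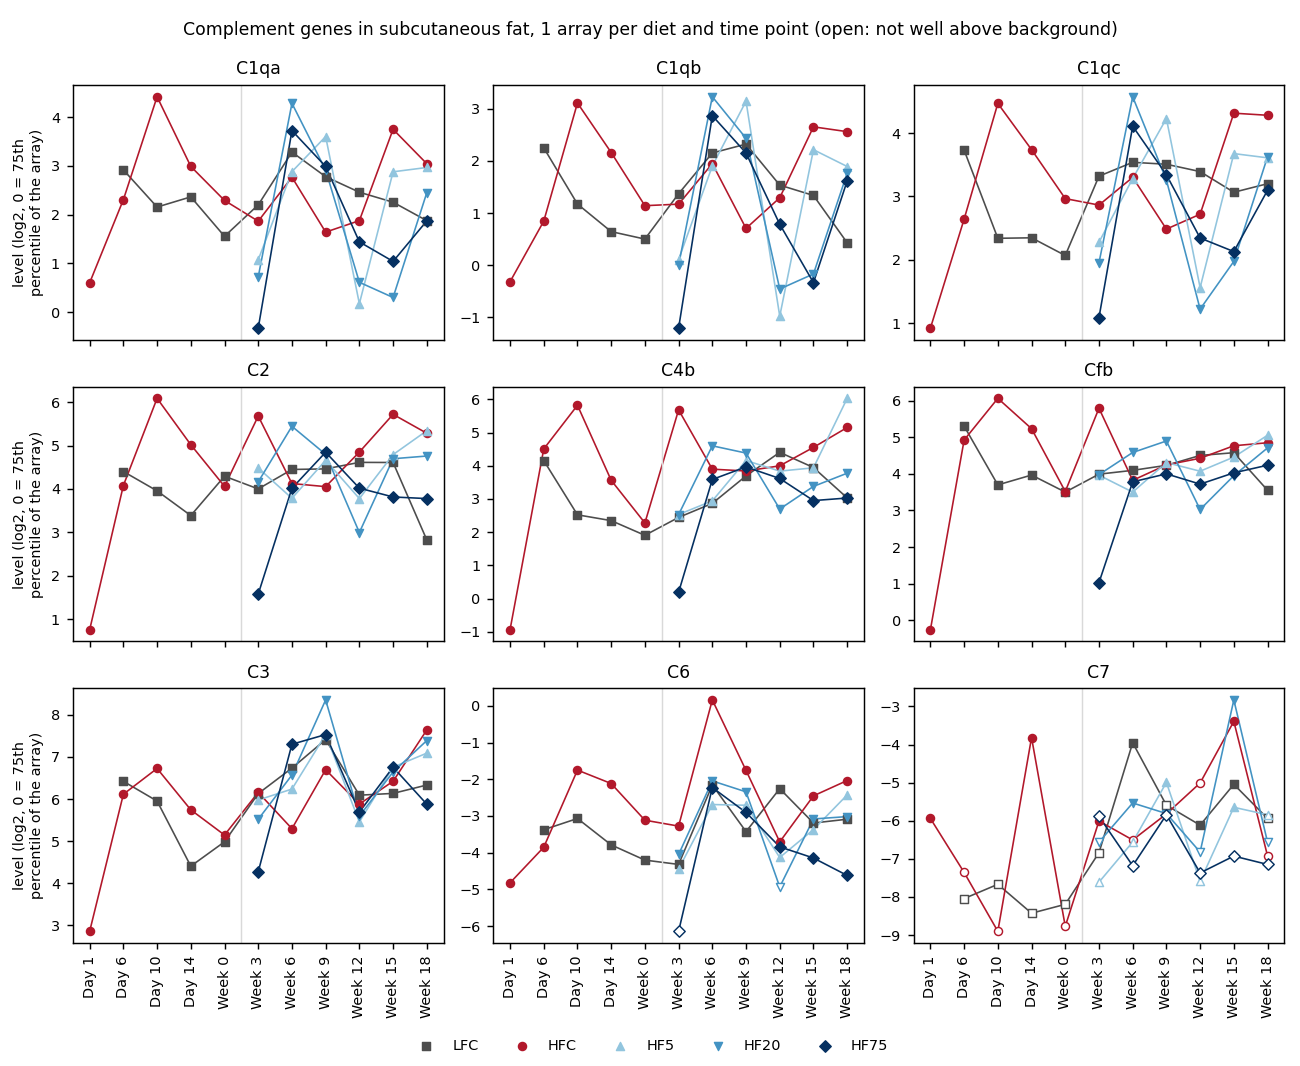
Level of each of the 9 genes (log2, 0 at the 75th percentile of the array, own axis for each gene) over the 11 time points, with 1 point per array and a colour per diet; open points were not well above background, and the grey line divides early from late time points. The HFC array of Day 1 and the HF75 array of Week 3 are the lowest or near the lowest for most genes, and most C7 points are open.

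The C1q chains, the recognition subunits of the classical pathway, moved together, and in the late weeks their means in LFC and HFC lay close. C1qa had levels of 2.92, 2.16, 2.36 and 1.56 in LFC and 2.31, 4.42, 2.99 and 2.29 in HFC at Day 6, Day 10, Day 14 and Week 0. HFC was thus the higher at 3 of the 4 early time points, and the ranges overlapped. From Week 3 to Week 18, C1qa ran from 1.88 to 3.28 in LFC (median 2.36), from 1.64 to 3.75 in HFC (median 2.32), from 0.18 to 3.60 in HF5 (median 2.88), from 0.30 to 4.28 in HF20 (median 1.59) and from -0.33 to 3.72 in HF75 (median 1.66). The diets overlapped throughout, and the KAL-1 diets held both the highest and the lowest late arrays. The late means of C1qb were 1.52 in LFC, 1.72 in HFC, 1.38 in HF5, 1.13 in HF20 and 0.98 in HF75, and those of C1qc were 3.34, 3.33, 3.11, 2.77 and 2.69 in the same order.

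The C1q difference between HFC and LFC depended on the time points looked at. Over the 10 time points the mean difference, HFC minus LFC, was 0.31 ± 1.11 (SD, n = 10) for C1qa, 0.39 ± 1.33 for C1qb and 0.33 ± 1.15 for C1qc, each higher in HFC at 5 of 10 time points. Without Day 10 they were 0.09 for C1qa and 0.13 for C1qc, and without Week 18 0.19 for C1qb. The early means were 0.75 ± 1.18 (SD, n = 4) for C1qa, 0.67 ± 1.49 for C1qb and 0.83 ± 1.38 for C1qc, with the highest C1qa value, 2.26, at Day 10. The late means were 0.02 ± 1.06 (SD, n = 6), 0.20 ± 1.33 and -0.01 ± 0.95, and none kept its sign under all settings. C1qa and C1qb were below 0 without Week 15, without Week 18 or with the scan day as a block, and C1qc was above 0 under 8 of 22 alternatives. With array quality weights the late values were highest, 0.68 for C1qa, 0.78 for C1qb and 0.63 for C1qc.

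On the KAL-1 diets the C1q chains were low in some weeks and high in others. Against HFC, C1qa was on average 0.23 lower in HF5 (SD 1.25), 0.61 lower in HF20 (SD 1.83) and 0.70 lower in HF75 (SD 1.64), and was below HFC in 4 of 6 weeks for each dose. The weeks above HFC were Week 6 and Week 9 for each dose. The lowest single differences were -1.70 at Week 12 for HF5, -3.45 at Week 15 for HF20 and -2.71 at Week 15 for HF75. Single weeks moved these means both ways. The HF20 difference of C1qa was -0.04 without Week 15 and -1.04 without Week 6, and that of HF75 was -0.30 without Week 15 and -1.11 without Week 9. The HF5 difference was -0.67 without Week 9. Without Week 12, the week whose labels are in doubt, the HF5 differences of C1qa and C1qb were above 0.

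C1q levels followed the macrophage markers across arrays. Over the 39 arrays the mean of the C1q chains had Pearson's r = 0.91 and Spearman's rho = 0.90 with the mean of 8 macrophage markers (Cd68, Emr1, Csf1r, Cd14, Lyz2, Mrc1, Cd163 and Itgam). The correlation was 0.89 without the 2 arrays farthest from the median of the markers, HF75 at Week 3 and HFC at Day 1, and 0.90 with the mean of each time point removed. These correlations are a description over arrays that share time points, with no p, and the list shares no gene with the 9. With the fibroblast markers, named below, r was 0.54, or 0.71 with the mean of each time point removed, and with the lymphocyte markers 0.36. With the adipocyte markers r was 0.03, and with the skeletal muscle markers -0.29, or -0.04 without the 2 arrays farthest on those markers. Within the C1q chains r was 0.96 for C1qa and C1qb, 0.94 for C1qa and C1qc and 0.95 for C1qb and C1qc. In bulk tissue, fewer macrophages and less C1q RNA per macrophage cannot be told apart.

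**Figure D2:**
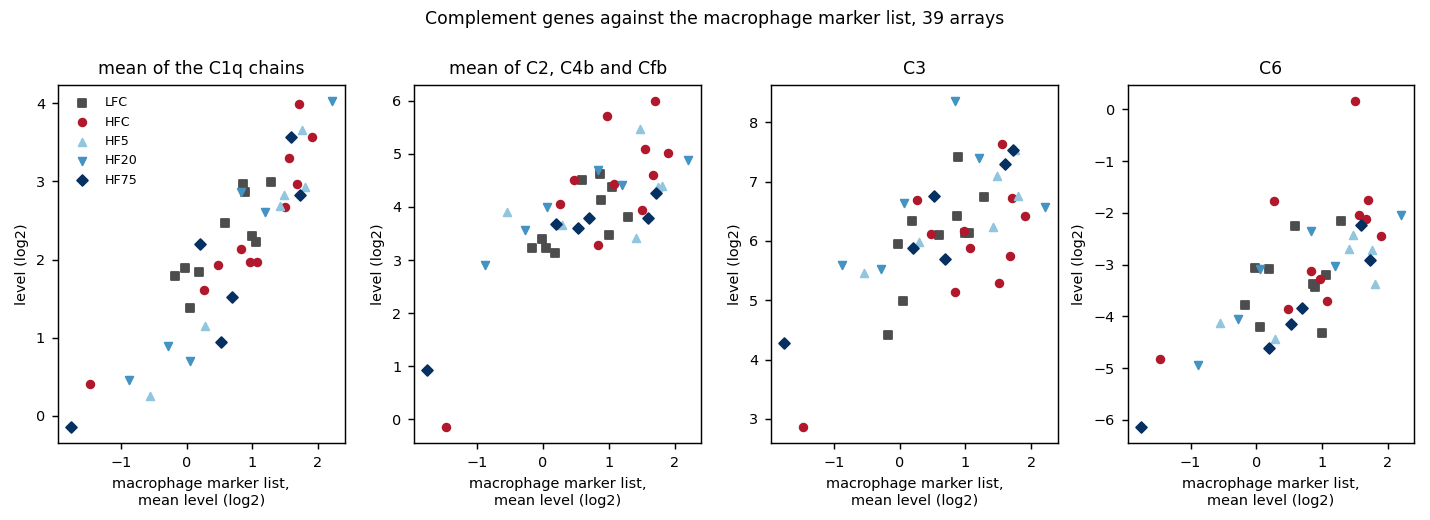
Level of the C1q mean, of the mean of C2, C4b and Cfb, of C3 and of C6 (y, log2) against the mean level of 8 macrophage markers (x, log2) on the 39 arrays, with a colour and symbol per diet. The C1q mean lies closest to a line (r = 0.91), and r is 0.76, 0.67 and 0.72 in the other panels.

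The genes most like each member in level were looked for over the 39 arrays. Of 12138 genes well above background on all 39 arrays, those most like the C1q mean were Folr2 (r = 0.94), Csf1r (r = 0.92) and Pld4 (r = 0.91), of which Folr2 and Csf1r encode receptors of macrophages and Csf1r is also on the marker list. Most like C3 were Vkorc1 (r = 0.82), Tmed3 (r = 0.82) and Retnla (r = 0.81), by the probe that was saturated on 21 of 39 arrays and whose level had r = -0.40 with the 75th percentile of the array. Among 14068 genes well above background on at least 37 arrays, most like C6 were Pld3, Tbxas1 and Man2b1 (r = 0.80, 0.79 and 0.79). With time point means removed, r stayed at 0.92 to 0.95 for the genes named for C1q, and was 0.60 to 0.69 for those of C3 and 0.62 to 0.74 for those of C6. For C7, among 18938 genes well above background on at least 11 arrays, the highest were Cd209c, Spock2 and Plcxd3, with r from 0.68 to 0.72, although C7 was well above background on only 11 arrays.

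The mean of C2, C4b and Cfb had r = 0.76 with the macrophage markers and 0.53 with 7 fibroblast markers (Pdgfra, Dcn, Lum, Col1a1, Col3a1, Dpp4 and Pi16). For C3 these were 0.67 and 0.66, for C6 0.72 and 0.21, and for C7 0.23 and 0.28. Without the 2 arrays farthest on the macrophage markers the values against those markers were 0.61 for the C2, C4b and Cfb mean, 0.51 for C3, 0.63 for C6 and 0.34 for C7. Without the 2 arrays farthest on the fibroblast markers the values against those were 0.57, 0.65, 0.48 and 0.33 in the same order. Spearman's rho with the macrophage and the fibroblast markers was 0.67 and 0.74 for the mean and 0.62 and 0.74 for C3. It was 0.68 and 0.40 for C6 and 0.38 and 0.38 for C7. C6 had r = 0.50 with the mesothelial markers. The C3 values are those of the often saturated probe, and differences between these correlations were not tested.

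C4b, the fourth component that C1s cuts, had the widest mean gap between HFC and LFC of the 9 genes, although with array quality weights it was 0.83, below the 1.09 of C6. C4b was at 4.16, 2.52, 2.35 and 1.90 in LFC and 4.51, 5.82, 3.56 and 2.28 in HFC at the 4 early time points, so HFC was higher at each. Its late levels were 2.44, 2.87, 3.69, 4.40, 3.95 and 3.03 in LFC and 5.68, 3.90, 3.84, 4.00, 4.55 and 5.15 in HFC, from Week 3 to Week 18 in order. HFC was the higher in 5 of these 6 weeks, with Week 12 the exception, and the ranges overlapped. The mean difference was 1.20 ± 1.29 (SD, n = 10), a 2.29-fold higher intensity in HFC, and HFC was higher at 9 of 10 time points. The values at Day 10 (3.30) and Week 3 (3.24) were the largest.

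C2, the protease that joins C4b, and Cfb, its counterpart in the alternative pathway, had smaller gaps in the same direction. C2 was at 4.40, 3.96, 3.39 and 4.29 in LFC and 4.08, 6.09, 5.02 and 4.06 in HFC at the early time points, higher in HFC at 2 of 4. Its late range was 2.83 to 4.61 in LFC (median 4.46) and 4.05 to 5.72 in HFC (median 5.07). The mean difference of C2 was 0.80 ± 1.13 (SD, n = 10), and the second C2 probe gave 0.80 ± 1.12. With array quality weights it was 0.32 for C2 and 0.30 for Cfb. Cfb ran from 3.55 to 4.58 in LFC (median 4.16) and from 3.82 to 5.79 in HFC (median 4.59) in the late weeks, with a mean difference over the 10 time points of 0.62 ± 0.97. The macrophage markers were also higher in HFC by 0.62 ± 0.85 on average (SD, n = 10) and at 7 of 10 time points, with 0 of 8 genes called. Among the other lists HFC minus LFC was 1.06 ± 2.84 for the mesothelial, 0.52 ± 3.37 for the liver, 0.56 ± 1.40 for the adipocyte, -0.86 ± 2.85 for the skeletal muscle, -1.05 ± 2.49 for the lymphocyte and -1.41 ± 2.46 for the brown fat markers. The means of the fibroblast markers were 3.54 in HFC and 3.33 in LFC, and those of neutrophil markers -0.40 and 0.17. The part of any of these in the complement differences was not tested.

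C3, on which all pathways converge, overlapped between all diets by its brighter probe. That probe was saturated on 21 of the 39 arrays, so its differences are compressed where the spot was full. Its late levels ran from 6.09 to 7.41 in LFC (median 6.23), from 5.30 to 7.64 in HFC (median 6.29), from 5.46 to 7.53 in HF5 (median 6.50), from 5.52 to 8.36 in HF20 (median 6.61) and from 4.27 to 7.53 in HF75 (median 6.32). HFC minus LFC was 0.12 ± 0.87 (SD, n = 10), and the sign turned without Day 14 or without Week 18. The dimmer C3 probe, never saturated and well above background on 33 arrays, gave 0.88 ± 1.86 for the same difference, higher in HFC at 7 of 10 time points. Against HFC the brighter and the dimmer probe differed in sign for HF5 (0.16 and -0.43) and HF20 and in size for HF75 (-0.11 and -1.49), so no direction is given for C3.

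C6, the second protein of the membrane attack complex, was higher in HFC than in LFC at 8 of 10 time points and lower in every KAL-1 diet than in HFC at all 6 weeks. With normexp background correction, however, the mean HF20 difference was 0.42, where the median over all genes was 0.36. In LFC it was at -3.37, -3.07, -3.79 and -4.20 at the early time points, and in HFC at -3.85, -1.75, -2.12 and -3.11. From Week 3 to Week 18 its levels were -4.32, -2.16, -3.42, -2.26, -3.19 and -3.09 in LFC and -3.28, 0.16, -1.76, -3.71, -2.45 and -2.03 in HFC. HFC at Week 6 was the highest array of all 39 for C6. In HF75 the same weeks gave -6.14, -2.23, -2.90, -3.84, -4.14 and -4.62, the first of which was not well above background, nor was HF20 at Week 12. The mean difference of HFC minus LFC was 0.90 ± 0.35 (SE, n = 10), and it was 0.11 with normexp background correction. It was 1.36 with the scan day as a block. HFC and LFC were scanned on different days at Day 6 and Week 12, the time points at which C6 was lower in HFC, and the part of the scan day was not tested further. HFC minus LFC was 0.90 ± 0.95 (SD, n = 4) early and 0.89 ± 1.28 (SD, n = 6) late.

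C7, which follows C6 in the complex, was near background. It was well above background on 11 of 39 arrays, on 0 of the 4 early LFC arrays and on 0 of the 6 HF75 arrays. Its late levels ran from -6.84 to -3.95 in LFC, from -6.92 to -3.39 in HFC, from -7.61 to -4.99 in HF5, from -6.82 to -2.83 in HF20 and from -7.37 to -5.84 in HF75. The arrays with C7 above -4 were LFC at Week 6, HFC at Day 14 and Week 15, and HF20 at Week 15. In the late weeks 2 of 6 HFC arrays were well above background, Week 3 and Week 15. The measured means of HFC and HF75 were -5.61 and -6.73, and the difference HF75 minus HFC turned from -1.12 to 0.54 with normexp background correction, so no direction is given for C7. HFC at Day 14 was also the array with the highest mesothelial and liver marker means, and HF20 at Week 15 had 4936 outlier spots against a median of 42; the part of either in these levels was not tested.

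In the limma fit across all genes, 0 of the 8 members tested passed an adjusted p of 0.05 for HFC against LFC at the 10 shared time points (C7 was too dim to be tested), where 0% of 19873 genes passed. At an unadjusted p under 0.05, 3 of 8 members were higher in HFC, namely C2, C4b and C6, against 1.96% of all genes. The smallest adjusted p of a member was 0.80 by limma. All 8 member differences were above 0, with a median of 0.50 against -0.04 over all genes tested. Since the list was chosen with these values known, the counts describe the list and show nothing beyond it. Comparing the late with the early HFC minus LFC difference, 0 of 8 members passed, adjusted or not, where 0% of genes passed adjusted and 1.89% unadjusted. The late minus early values ran from -0.84 for C1qc to -0.0046 for C6, and the signs of C2, C4b, Cfb and C6 turned under 2 to 8 alternatives. Over Week 3 to Week 18 alone, 0 of 9 members passed the adjusted threshold (0% of 21087 genes), and 2 of 9, C4b and C6, were higher at an unadjusted p under 0.05 (2.26% of genes).

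**Figure D3:**
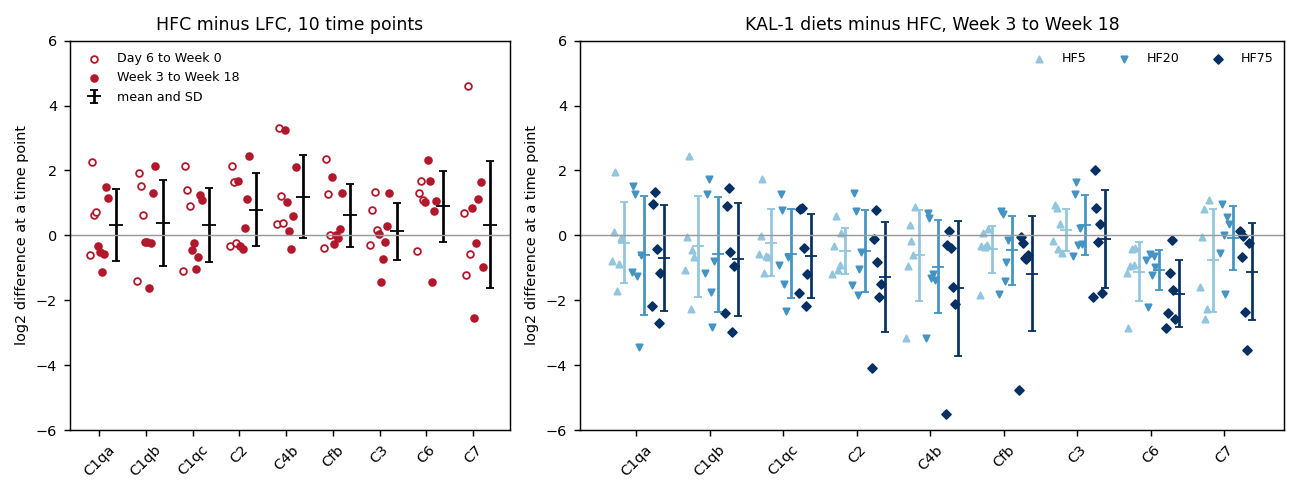
Log2 difference at each time point for the 9 genes, with HFC minus LFC on the left (open, Day 6 to Week 0; filled, Week 3 to Week 18) and each KAL-1 diet minus HFC on the right; bars are the mean ± SD over time points. All C6 points of the 3 doses lie below 0, and the C2, C4b and Cfb points of HF75 at Week 3 lie apart from the rest.

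The KAL-1 diets were compared with HFC at the 6 late weeks, with the high-fat diet in all 4 groups. C4b was on average at 4.52 in HFC, 3.91 in HF5, 3.56 in HF20, 3.40 in LFC and 2.89 in HF75. C6 was at -2.18 in HFC, -3.07 in LFC, -3.24 in HF20, -3.29 in HF5 and -3.98 in HF75. C2 was at 4.95 in HFC, 4.48 in HF20, 4.47 in HF5, 4.16 in LFC and 3.68 in HF75, and Cfb at 4.65, 4.22 (HF5), 4.19 (HF20), 4.16 (LFC) and 3.46 (HF75). Exchanging HF5 and HF20 at Week 12 put C4b at 3.72 in HF5 and 3.75 in HF20 and Cfb at 4.05 and 4.36, which turned the order of the 2 diets for C4b and Cfb and put Cfb in HF5 below LFC. With C3 and C7 left aside, HFC was the highest diet for 6 of the other 7 genes and HF75 the lowest for all 7, while each of their 28 gaps between neighbouring diets was under 1 SD of its weekly differences. The place of HF75 depended on Week 3. HF75 minus LFC was -0.56 for the mean of C2, C4b and Cfb, or -0.17 without Week 3. For the C1q mean it was -0.63, or -0.26 without Week 3, when HF20 minus LFC was -0.34, so that HF20 was then below HF75.

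For C2, C4b, Cfb and C6 the mean difference from HFC was wider in HF75 than in HF5 or HF20. For the C1q mean it was -0.69 in HF75 and -0.59 in HF20, an order that turned to -0.41 and -0.49 without Week 3. C6 was lower by 1.80 ± 1.03 on the log2 scale (SD, n = 6), C4b by 1.63 ± 2.08, C2 by 1.28 ± 1.69 and Cfb by 1.18 ± 1.77. With normexp background correction the C6 difference was -0.33, narrower than the -0.54 of HF5, and with array quality weights C4b was at -0.97 and Cfb at -0.69. Cfb was lower than HFC in 6 of 6 weeks and C2 and C4b in 5 of 6, with Week 9 the exception. The weekly C4b levels of HF75 were 0.19, 3.59, 3.96, 3.62, 2.95 and 3.03, of which the first stands far below. Of the 7 genes other than C3 and C7, all 7 were below HFC at Week 3, Week 12, Week 15 and Week 18, but 4 at Week 6 and 2 at Week 9. In limma 0 of 9 members passed the adjusted threshold (0% of genes), and 4 of 9 were lower at an unadjusted p under 0.05, C2, C4b, Cfb and C6, against 3.1% of genes in that direction. The median difference of the 7 genes was -1.18, against 0.00 over all genes. Over the same weeks the macrophage markers were lower in HF75 by 0.72 ± 1.44 (SD, n = 6) and below HFC in 4 of 6 weeks, and the skeletal muscle markers were higher by 3.33 ± 4.47 and above HFC in 5 of 6. The brown fat markers were on average at -0.79 in HF75 and -1.99 in HFC, and the fibroblast markers at 3.17 and 3.62. The part of any of these lists in the HF75 differences was not tested.

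Part of this gap came from Week 3. Without that week the differences from HFC were -0.86 for C4b, -0.71 for C2 and -0.47 for Cfb, the HFC array being high as well. Without the HF75 array of that week alone they were -1.20 for C4b, -0.84 for C2, -0.67 for Cfb, -1.58 for C6 and 0.17 for C3, and the C1q chains were between -0.43 and -0.46. On that array the skeletal muscle markers were at 7.58 and the macrophage markers at -1.76, the highest and the lowest of all 39 arrays, and 8 of the 9 genes were among their own 3 lowest arrays. On HFC at Day 1, with muscle markers at 6.24 and macrophage markers at -1.47, 6 of the 9 genes were among their 3 lowest. HFC and LFC at Day 6 had muscle marker means of 5.29 and 4.50 with none of the 9 genes among its 3 lowest there, and HF5 at Week 12 had 6.41 with 2. The part of muscle RNA in these levels was not tested.

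**Figure D4:**
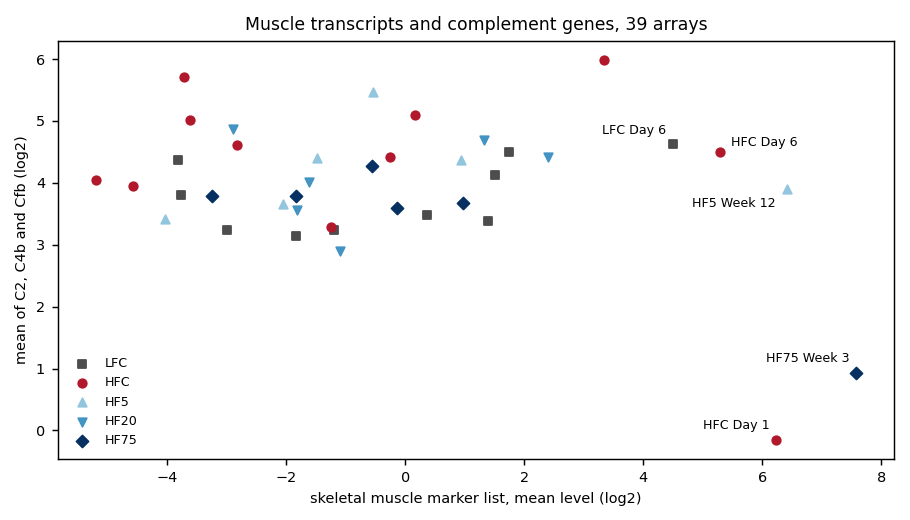
Mean level of C2, C4b and Cfb (y, log2) against the mean level of 5 skeletal muscle markers (x, log2) on the 39 arrays, with the 5 arrays of highest muscle level named. HF75 at Week 3 and HFC at Day 1 are low on the y axis, while HF5 at Week 12 and both Day 6 arrays lie among the other arrays.

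At the smaller doses C6 was lower by 1.12 ± 0.90 in HF5 and by 1.07 ± 0.61 in HF20 (SD, n = 6 each), with the widest gap at Week 6, where HFC itself was highest. With normexp background correction the C6 difference was -0.54 for HF5 and 0.42 for HF20, so the direction in HF20 turned with the background method. The median HF20 difference over all genes was 0.36 with that correction, against 0.05 as reported, so the turn was not particular to C6. C4b was lower by 0.61 ± 1.40 in HF5 and by 0.96 ± 1.43 in HF20, and without Week 3 by 0.11 and 0.52. With the slide as a random block the C4b values were -0.34 and -0.60 and C6 in HF20 was -0.56. In limma 0 of 9 members passed the adjusted threshold for HF5 or for HF20 (0% of genes in both), and 1 of 9, C6, was lower at an unadjusted p under 0.05, against 0.65% of genes for HF5 and 1.25% for HF20. The 3 doses share the HFC arrays, so a high HFC array such as C6 at Week 6 or C4b at Week 3 enters all 3 differences. In the late weeks the macrophage markers were on average at 1.21 in HFC, 1.03 in HF5 and 0.52 in HF20. The skeletal muscle markers were at -2.87, -0.13 and -0.62 and the lymphocyte markers at -4.26, -3.33 and -2.74 in that order. The part of these lists in the differences at the smaller doses was not tested.

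In the order HFC, HF5, HF20 and HF75, scored in equal steps, C6 was lower by 0.54 per step (SE 0.13), C4b by 0.52 (SE 0.16), C2 by 0.38 (SE 0.15) and Cfb by 0.36 (SE 0.13) in the limma fit. The C1q chains had -0.23 to -0.25 per step, or -0.07 to -0.11 without Week 15. The C3 step was -0.02 (SE 0.11) by the often saturated probe, -0.26 with the mean of both probes and 0.10 without Week 3, with no direction given. Here 0 of 9 members passed the adjusted threshold (0% of genes) and the same 4 of 9 were lower at an unadjusted p under 0.05 (3.16% of genes). The C6 step was -0.0024 with normexp background correction and -0.28 with array quality weights. Without Week 3 the steps were -0.30 for C4b, -0.21 for C2 and -0.15 for Cfb, and with array quality weights -0.28 for C4b and -0.17 for Cfb.

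Over the weeks, with the diets as covariates, C4b was higher by 0.07 per week (SE 0.03), or 0.03 without Week 3, and the other members had between 0.01 and 0.05 per week. In limma 0 of 9 members passed an adjusted p of 0.05, where 0.0948% of genes passed, and 1 of 9, C4b, was higher at an unadjusted p under 0.05, against 9.24% of genes, so the share of members was near the background. Without Week 3 the slopes of C1qa, C1qb, C1qc, C3, C6 and C7 were below 0. No scan day held arrays of more than 1 time point, so week and scan day cannot be told apart.

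The other complement genes were taken from a list of 45, of which 44 were on the array and 21 were well above background on all 39 arrays. In limma 0 passed the adjusted threshold in any comparison, of 33 tested for HFC against LFC and 35 in the late weeks. For HFC against LFC 3 of 33 were higher and 1 lower at an unadjusted p under 0.05, against 1.96% and 3.90% of all genes. Their median difference was 0.26 and 25 of 33 were above 0, against -0.04 and 45.3% over all genes. For HF75 against HFC 0 of 35 were higher and 4 lower, against 1.93% and 3.10% of all genes. Their median was -0.40 and 6 of 35 were above 0, against 0.00 and 50.2%.

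Among the proteases that C1q starts, C1s differed by 0.58 (SE 0.31) and C1rb by 0.46 (SE 0.36) between HFC and LFC. In the lectin pathway the scavenger collectin Colec12 differed by 0.82 and the collectin Colec11 by -0.51, while Mbl1, Mbl2, Masp1 and Fcnb were well above background on 2 to 7 of 39 arrays. In the alternative pathway Cfd, which encodes adipsin, was lower in HFC at 10 of 10 time points with a difference of -0.61 (SE 0.18), and Cfp, properdin, had 0.25. Of the other terminal genes Hc, which encodes C5, had 0.70 and C8g 0.26, and C8a, C8b and C9 were well above background on 2 to 5 arrays. Of the regulators Cfi had 1.06 and the C1 inhibitor Serping1 0.61, and of the receptors Itgax, a chain of a receptor for cleaved C3, had 1.23 and Cr2, a receptor of B cells, -1.34. The lymphocyte markers were highest of all 39 arrays in LFC at Week 3, at 0.97 against -5.38 in HFC of that week, and their part in the Cr2 difference was not tested.

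C3ar1, the receptor for the C3a fragment, was named after its values were seen. Its level in HFC exceeded that in LFC at 10 of 10 time points by 1.00 (SE 0.20, limma adjusted p = 0.80).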

How the data were processed

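The data are 39 Agilent 1-colour (Cy3) arrays of mouse subcutaneous adipose tissue. Per the file headers, spot intensities were extracted with Agilent Feature Extraction 10.5.1.1 (9.1 in the submitters' processing notes), with background subtracted within each array, and the files hold flags of 0 or 1 for spots well above background, saturated or outlying. The authors also deposited log2 ratios of each array to LFC at its own time point, used here only to check labels.

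Control spots were left out, and the level is log2 of the processed signal minus log2 of the 75th percentile of the array. Outlier spots were left out, replicate spots of a probe averaged, and a gene was represented by its probe of highest mean level. The test was that of limma 3.58.1 in R 4.3.3, on genes that passed the background flag on a number of arrays no lower than the size of the smallest group. Time points entered as a block or, for the change per week, the diets as covariates. P-values were adjusted by Benjamini-Hochberg over all genes. The steps were tested on simulated data. Groups came from the labels, and with 1 array for each diet and time point the p-values measure the spread between time points, which may be technical.

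The members and gene lists were chosen with earlier results of these data known. Text names all members, per role the 2 other complement genes with the largest HFC minus LFC difference, and the 3 genes most like the C1q mean, C3, C6 and C7. Alternatives covered background correction, normalization, filters, probes, weights, blocks, labels and arrays left out. The number of arrays limits the precision.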

Additional observations from a re-analysis of the deposited data

Results flagged for a closer look

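In HF75, C2, C4b and Cfb each had 1 array far below the others, at Week 3. The levels there were 1.58 for C2 (next lowest 3.78), 0.19 for C4b (next lowest 2.95) and 1.03 for Cfb (next lowest 3.72). In HF20, the C7 level at Week 15, -2.83, lay far above the next highest, -5.53. Of 36 groups of 6 or 10 arrays looked at, 4 had such an array. Chance gives about 1 in 20 groups, but 3 of the 4 are the same array in genes whose levels moved together, so they are not separate cases. HFC has 11 arrays and was not looked at in this way.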

How the results depend on the processing

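With 1 exception, 0 members passed an adjusted p of 0.05 in limma under the 26 settings other than the reported one. The exception was HF20 against HFC with normexp background correction, where 4 members passed, C1qc, C4b and Cfb lower and C7 higher, among 8080 of 21087 genes called. Of 1477 values of the members under these settings, 1464 moved by under 1 SD of the differences. That SD is between time points and often exceeds the difference, so the count does not show that values held. The C6 difference of HFC and LFC, 0.90 as reported and 0.11 with normexp, is among them. The sign turned for 2 of 168 values of HFC against LFC over 10 time points and 23 of 196 over Week 3 to Week 18. It turned for 23 of 160 late minus early values. For HF5, HF20 and HF75 it was 6, 8 and 5 of 196, for the dose order 5 of 187 and per week 16 of 178. The gene count for the change per week, 20 as reported, ran from 0 to 2894 when a week was left out, the highest without Week 3, and was 489 with array quality weights, 30 with an intensity trend, 28 with quantile normalization or without the diets as covariates, 15 with genes well above background on every array, 4 with the mean of probes, 3 with no filter and 1 with normexp or the slide as a random block. The cause was not tested. The slide could not be fitted as a random block over the 10 time points. Leaving out the HF20 array of Week 15 or the HF75 array of Week 3 was chosen after seeing the data. Without the time point as a replicate block 0 genes were called for any comparison of diets.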
